A study of Mus musculus with 18 samples.

Results

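A-485 against DMSO at steady state compares the 3 libraries of AT3 cells that received A-485 (1000 nM, 3 h, no IFNγ) with the 3 libraries that received only the DMSO vehicle, that is, 6 of the 18 libraries of the series. The members were chosen by their sample labels alone. AT3 is a mouse mammary carcinoma line, and all 6 cultures were of this single line, at 1 dose and 1 time. RNA was measured by QuantSeq, which reads the 3′ ends of polyadenylated transcripts. The labels call the cultures biological triplicates and the methods of the study call them technical ones, so the p values may measure only technical spread. The other libraries were treated with A-241 (250 nM), with IFNγ, or with either inhibitor for 1 h followed by IFNγ for 2 h; of these, the A-485+IFNγ and IFNγ libraries are used here as a repeat of the A-485 comparison.

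P300 and CBP are paralogous lysine acetyltransferases that transcription factors recruit to enhancers and promoters, where they acetylate histone tails, among them lysine 27 of histone H3. A-485 competes with acetyl-CoA for the catalytic pocket of both enzymes. The comparison asks which transcripts depend on this activity in unstimulated tumor cells. A change in a transcript after 3 h combines its synthesis and its decay, and counts per library give relative levels.

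A-485 for 3 h lowered 74 of 11964 genes tested and raised 5, and decreases made up 93.7% of the calls (edgeR quasi-likelihood test, adjusted p under 0.01). These are 0.619% of the genes tested for the decreases and 0.0418% for the increases. All 74 lower genes code for proteins, against 86.0% of all genes tested. Their median log2 fold change was -1.46, with a range of -3.22 (Tle3) to -0.83 (Rabep1); 66 of the 74 fell by more than 1 on the log2 scale and 16 by more than 2. In each of the 74, all 3 A-485 libraries lay below all 3 DMSO libraries in CPM (counts scaled to the depth of each library), and in each of the 5 all A-485 libraries lay above; over all genes tested, 8.84% and 7.04% showed such a separation. A further 158 genes were lower and 7 higher at an adjusted p under 0.05. The median over all genes tested was -0.004, with 6019 genes lower and 5942 higher by sign. The scaling between libraries takes most genes as unchanged, so these values cannot measure a shift shared by most genes. In bulk RNA, fewer cells that express a gene and less RNA per cell cannot be told apart.

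These counts depend on the fit and on the libraries included. When only the 6 libraries compared were fitted, 0 genes were lower and 0 higher (671 and 208 at an unadjusted p under 0.05), whereas DESeq2 on all libraries called 232 lower and 10 higher. DMSO replicate 3 stood apart, with 20.1% of its counts on the gene Gm42418 against 7.11% to 16.2% in the other 5 libraries, and with the least depth (3417167 counts against 4280273 to 6145972). Without it 74 genes were lower and 1 was higher, but only 58 of the 74 genes called lower with all libraries were among them. Without both this library and the similar IFNγ replicate 2, a choice made after seeing the data, 277 were lower and 21 higher. Without A-485 replicate 1, 2 or 3 the counts dropped to 28, 30 and 49 lower genes and 0 higher, and without DMSO replicate 1 to 45 and 0. With any 1 of the 6 libraries left out, all 74 lower genes kept a negative and all 5 higher genes a positive fold change, and 25 of the lower genes and 0 of the higher were called every time.

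**Figure D1:**
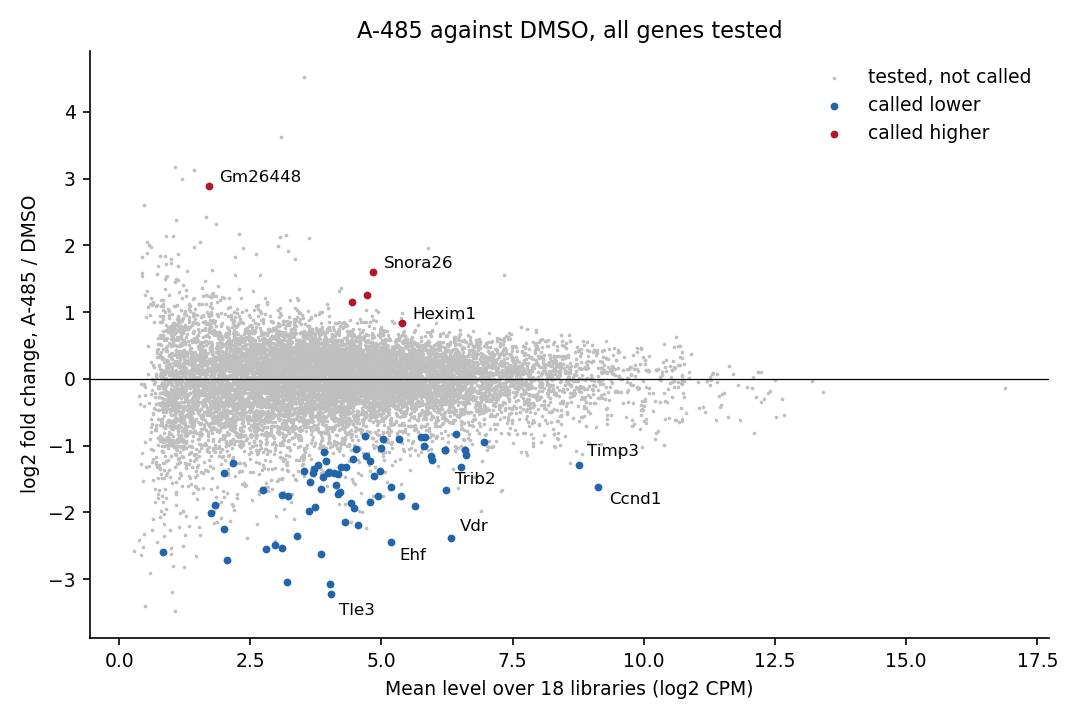
log2 fold change with A-485 (y axis) against the mean level over the 18 libraries in log2 CPM (x axis), 1 point per gene tested. The 74 genes called lower (blue) reach from -0.83 to -3.22, while the 5 called higher (red) lie between 0.84 and 2.89.

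**Figure D2:**
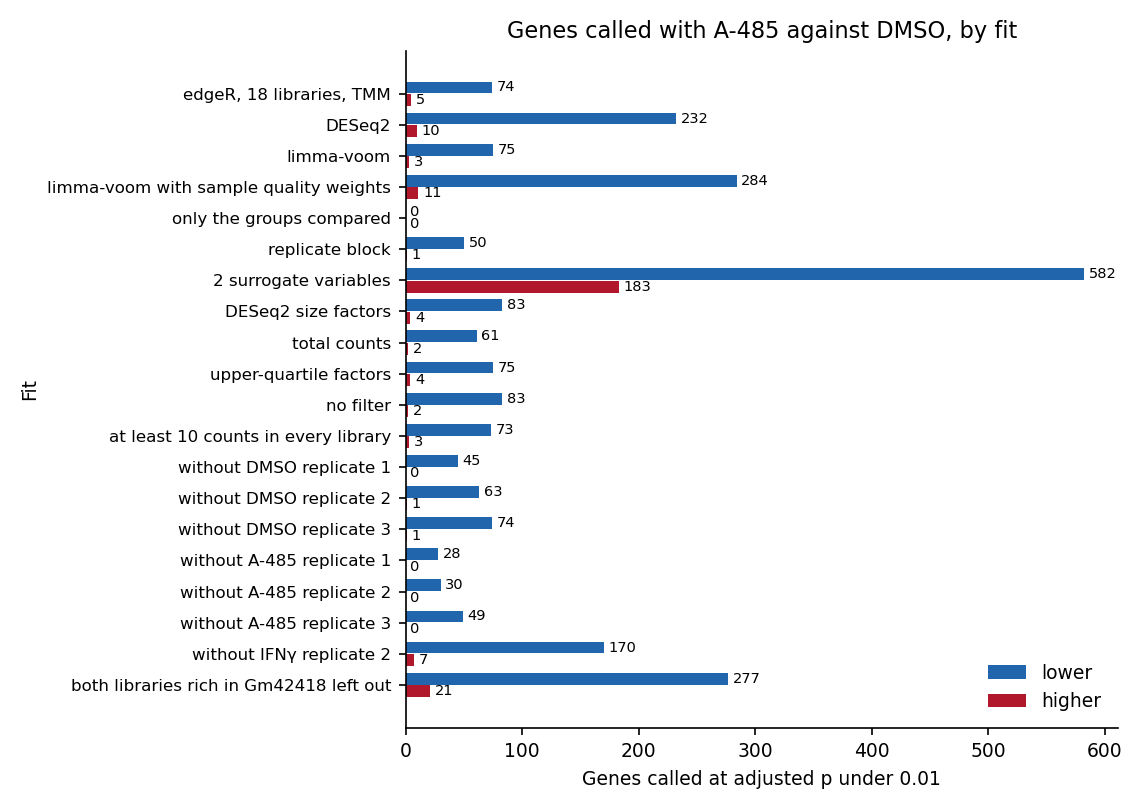
Number of genes called lower (blue) and higher (red) at an adjusted p under 0.01, on the x axis, for the model used here (top bar) and for each alternative fit. The number of lower genes ranges from 0, when only the 6 libraries are fitted, to 582 with 2 surrogate variables, and exceeds the number of higher genes wherever there are calls.

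Of 12 markers listed for the AT3 line, 9 passed the count filter. The epithelial genes Krt8, Krt18, Krt7, Epcam and Cdh1 had between 227 and 3950 counts in every one of the 6 libraries. Cldn3 had 98 to 476, Erbb2 52 to 101 and the mesenchymal gene Vim 402 to 803. Others were low or absent: Pgr had 2 to 13 counts and Cldn4 0 to 2. Krt19 and Esr1, the estrogen receptor gene, were at 0 in all 6. Endothelial, fibroblast and adipocyte markers were low, and the summed level of each of these lists was at most 9.11 CPM. The fibroblast markers summed to 4.67 to 9.11 CPM, and Col3a1 among them had 10 to 38 counts in each library. Leukocyte markers summed to 6.89, 5.04 and 17.9 CPM in the DMSO libraries and to 43.7, 13.8 and 38.3 CPM in the A-485 libraries. Of the 9 genes, Adgre1 was at 0 throughout, 3 were tested and none of these was called; Ptprc, the pan-leukocyte phosphatase CD45, had 2, 6 and 4 counts with DMSO and 37, 1 and 73 with A-485, and Lyz2, the lysozyme of myeloid cells, had 21, 4 and 39 against 178, 48 and 72. The transcripts of the targets themselves did not pass the test. Ep300 changed by 0.22 ± 0.15 (log2 fold change ± SE, n = 3 against 3, adjusted p = 0.588) and Crebbp, which encodes CBP, by 0.24 ± 0.14 (adjusted p = 0.537).

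The largest decrease among the genes called was in Tle3 (chromosome 9, 61372366 to 61418497, GRCm38), a Groucho-family co-repressor that other transcription factors tether to DNA. Tle3 was at 41.9, 37.6 and 50.7 CPM with DMSO and at 4.58, 4.19 and 5.1 CPM with A-485. Both groups were tight and far apart, a 9.34-fold decrease (log2 fold change -3.22 ± 0.27, adjusted p = 1.85e-05). Among 20 co-repressor genes tested, Tle3 alone was called, and the median of the list was -0.07. The window upstream of its start is shown here with that of Klf13, a called transcription factor gene, and that of Hexim1, the called gene with the smallest increase. The bases run 5′ to 3′ in the direction of transcription (RefSeq starts, GRCm38.p6), end before the first annotated transcribed base, and carry in capitals every match, on either strand, to the motifs searched.
Tle3 (chr9:61372116-61372365, plus strand): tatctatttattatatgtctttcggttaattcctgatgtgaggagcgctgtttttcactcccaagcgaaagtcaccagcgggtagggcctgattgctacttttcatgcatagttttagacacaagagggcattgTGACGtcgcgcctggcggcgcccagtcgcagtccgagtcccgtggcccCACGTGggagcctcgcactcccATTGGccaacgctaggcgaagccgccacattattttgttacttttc
Klf13 (chr7:63938916-63939165, minus strand): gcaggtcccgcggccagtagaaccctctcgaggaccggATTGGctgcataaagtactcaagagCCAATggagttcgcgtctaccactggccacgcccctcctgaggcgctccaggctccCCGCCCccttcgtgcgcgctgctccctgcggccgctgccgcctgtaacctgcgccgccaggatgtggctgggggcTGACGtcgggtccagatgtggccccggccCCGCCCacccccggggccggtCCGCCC
Hexim1 (chr11:103116075-103116230, plus strand): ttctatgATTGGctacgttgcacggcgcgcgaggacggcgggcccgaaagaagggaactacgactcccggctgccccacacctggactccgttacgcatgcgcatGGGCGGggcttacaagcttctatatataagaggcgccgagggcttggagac
The capitals in Tle3 mark the core of the cAMP response element (TGACG), an E-box (CACGTG) and a CCAAT box in reverse. In Klf13 they mark the same core, 3 GC boxes (GGGCGG, here in reverse) and a CCAAT box in each orientation, and in Hexim1 a CCAAT box in reverse and a GC box.

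Windows of 300 bases around the start were matched by symbol for 48 of the 74 lower genes and for 8283 of all genes tested, and the shares of windows with each motif are given here as a description. The core TGACG was in 27.1% of the windows of the lower genes and in 34.1% of all windows, and the complete element TGACGTCA in 2.08% and 3.63%. AP-1 sites (TGANTCA) were in 4.17% and 4.29%, E-boxes in 10.4% and 10.7%, and sites for TEAD factors (GGAATG) in 14.6% and 11.7%. GC boxes were more frequent among the lower genes, at 79.2% against 68.1%, as was the TATA box (TATAAA), at 14.6% or 7 windows against 6.42%. The CCAAT box went the other way, at 22.9% against 39.7%. The median GC content was 66.8% against 61.7%. The lower genes spanned a median of 34.4 kb on the genome against 19.5 kb for all genes tested, with a median of 8 exons in both. Their median level was 4.27 against 4.01 log2 CPM. The lower genes all code for proteins, whereas 86.0% of all genes tested do, and the lengths were not compared among coding genes alone.

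The genes described next were, like Tle3, among the 12 largest decreases of genes with at least 50 counts on average, and include regulators, secreted signals and proteins of ion and retinoid handling. Ehf, an epithelial ETS factor, was at 84.8, 94.5 and 148 CPM against 18.1, 21.1 and 20.9 CPM (-2.44 ± 0.26, adjusted p = 0.000113). Vdr, the nuclear receptor for vitamin D, was at 150, 138 and 298 CPM against 37.2, 39.2 and 35.7 CPM (-2.38 ± 0.29, adjusted p = 0.000356). The A-485 libraries of Vdr lay within a narrow range, whereas DMSO replicate 3 was about as high as the other 2 DMSO libraries together.

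Of the secreted signals, Il34, a ligand of the CSF1 receptor, was at 22.1, 11.5 and 44.1 CPM with DMSO and at 3.88, 2.67 and 2.55 CPM with A-485 (log2 fold change -3.04 ± 0.54, adjusted p = 0.00655). Inhbb, the βB subunit of activins and inhibins, was at 18.9, 22.7 and 19.3 CPM against 3.17, 4.76 and 2.78 CPM (-2.5 ± 0.28, adjusted p = 0.000182). The groups of Inhbb were compact, while the DMSO libraries of Il34 spread widely and its call was kept in only 1 of the 6 fits that left out a library. Lifr, the receptor subunit for leukemia inhibitory factor, was at 13, 10.4 and 14.5 CPM against 1.41, 2.29 and 2.78 CPM (-2.55 ± 0.29, adjusted p = 0.000179).

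Trpv6, an epithelial calcium channel that vitamin D is known to induce in the intestine, was at 21.4, 16.9 and 42.4 CPM with DMSO and at 5.81, 4.57 and 5.1 CPM with A-485 (log2 fold change -2.35 ± 0.39, adjusted p = 0.00417). Cyp26b1, which degrades retinoic acid, was at 103, 65.7 and 33.1 CPM against 13.2, 12.9 and 18.6 CPM (-2.18 ± 0.38, adjusted p = 0.00616). DMSO replicate 3 was the highest DMSO library for Trpv6 and the lowest for Cyp26b1, and the calls of both were lost in most fits that left out a library (kept in 2 and 1 of 6). Arl4a, a small GTPase of the ARF family, was at 33.4, 28 and 37.6 CPM against 3.88, 4 and 8.35 CPM (-2.62 ± 0.27, adjusted p = 0.000102).

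The set also held Lrrc75b, a leucine-rich repeat gene, and Depp1, a gene known as a target of FOXO factors. Lrrc75b was at 44.2, 31 and 85.8 CPM with DMSO and at 7.4, 6.67 and 4.64 CPM with A-485 (log2 fold change -3.08 ± 0.47, adjusted p = 0.00222). Depp1 was at 15.6, 14 and 7.24 CPM against 1.41, 1.33 and 3.01 CPM (-2.72 ± 0.45, adjusted p = 0.00551). The genes were chosen for groups that do not overlap in CPM. Tle3, Arl4a, Lifr, Inhbb, Ehf and Vdr were called in every fit that left out a library.

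**Figure D3:**
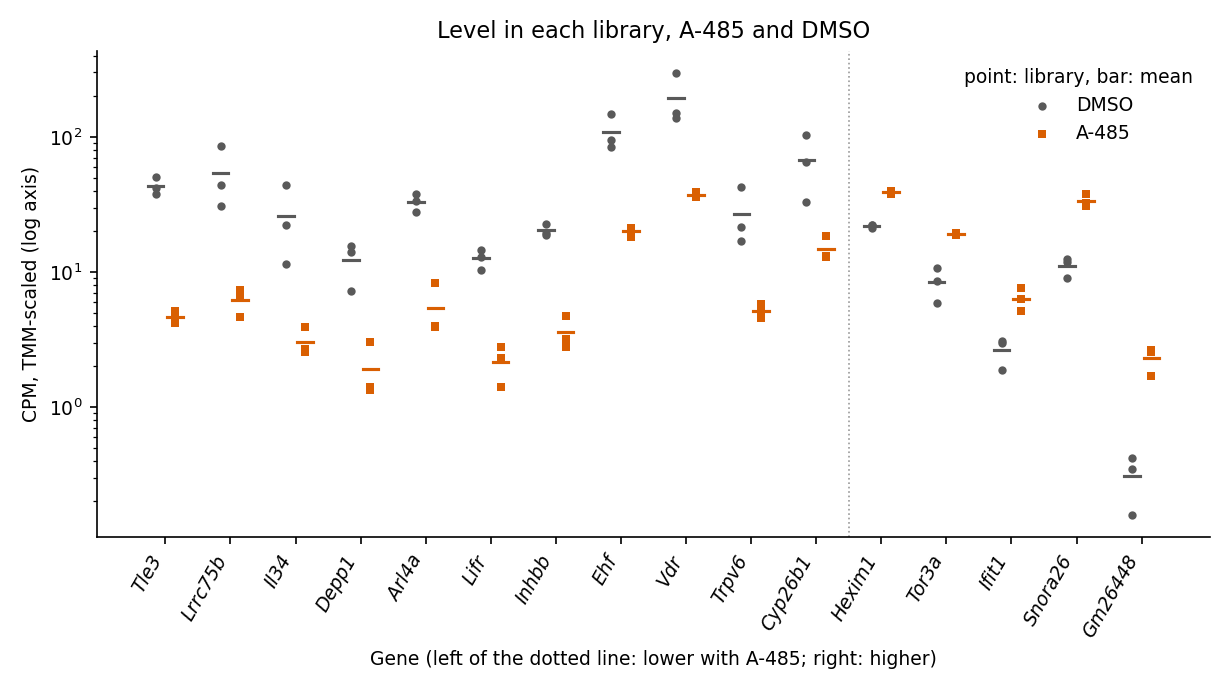
Level of each gene in CPM (y axis, log scale) for genes among the 12 largest decreases with at least 50 counts and for the 5 increases (x axis), with 1 point per library and a bar at the mean of the 3 DMSO (grey circles) and 3 A-485 (orange squares) libraries. The decreases shown were chosen for groups that do not overlap, and the A-485 libraries of Tle3 all lie near 5 CPM while its DMSO libraries lie between 37.6 and 50.7 CPM.

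The 74 lower genes were sorted by known function after their values were seen, and the groups below are a description. They comprise 14 transcription factors and cofactors, 14 receptors, channels and contact proteins, 7 secreted signals and matrix proteins, 15 actin, adhesion and membrane scaffold proteins, 10 enzymes and transporters, 7 kinase, cell cycle and signaling regulators, and 7 others. The median log2 fold changes of these groups lay between -1.23 (actin and scaffold) and -1.69 (secreted and matrix). Reads over several genes were counted for each, and 24 of the 74 genes share exon bases with another gene. This count is given without the share over all genes tested and says nothing particular about the 74. Akap2 and Pakap, which encode anchoring proteins for protein kinase A from 1 locus, and Acsl3 and Utp14b are 2 pairs in which both genes were called and cannot be separated.

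Across 11 lists of transcription factor families with 404 genes tested, 6 were lower, namely Ehf, Vdr, Klf13, Foxp1, Id4 and Irx5, and 0 were higher. The 6 are 1.49% of the genes tested in these lists, against 0.619% of all genes, and the median over the 404 was -0.1 with 240 lower by sign. Klf13, a Krüppel-like factor, was at 71.7, 57.8 and 45.9 CPM with DMSO and at 23.6, 21.9 and 22.3 CPM with A-485 (log2 fold change -1.37 ± 0.19, adjusted p = 0.000879). Foxp1, a forkhead repressor, changed by -1.06 ± 0.15 (adjusted p = 0.001) and Irx5, an Iroquois homeobox factor, by -1.36 ± 0.23 (adjusted p = 0.00417). Id4, which binds and blocks E-protein partners, was at 33.2, 49.1 and 53.8 CPM against 18.5, 12.4 and 14.1 CPM (-1.59 ± 0.25, adjusted p = 0.00314).

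Other regulators outside these families were among the calls. Hlf, a PAR bZIP factor, changed by -1.85 ± 0.21 (adjusted p = 0.000192), Trps1, a GATA-type zinc finger repressor, by -0.95 ± 0.13 (adjusted p = 0.000967), and Nupr1, a stress-induced chromatin protein, by -1.46 ± 0.21 (adjusted p = 0.00152). Trps1 was the most abundant of them, and went from 210, 223 and 247 CPM to 120, 108 and 124 CPM.

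More of the 404 genes belong to the C2H2 zinc finger genes named Zfp than to any other list, and of these 0 were called, with a median of -0.05. Immediate early factors had 20 genes tested, 0 called and 10 lower by sign. In the SOX family, 6 of 15 genes passed the count filter, 0 were called at 0.01 and 3 at 0.05 (50%, against 1.94% of all genes). The 3 were Sox4 (-1.02 ± 0.21, adjusted p = 0.017), Sox8 (-3.48 ± 0.77, adjusted p = 0.0259) and Sox11 (-2.14 ± 0.49, adjusted p = 0.0306). Sox8 was at 0 to 0.952 CPM in the A-485 libraries, close to the 0.55 to 0.701 CPM that 3 counts correspond to there. Myc, at 8.83, 10.4 and 21.7 CPM against 8.1, 6.67 and 5.8 CPM, did not pass the test (-0.95 ± 0.44, adjusted p = 0.396). Its change was -0.47 without DMSO replicate 3, the highest DMSO library.

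Ligands and receptors of developmental pathways were among the calls. Wnt7b, a Wnt ligand, was at 119, 101 and 88.3 CPM with DMSO and at 26.2, 23.8 and 32.5 CPM with A-485 (log2 fold change -1.91 ± 0.18, adjusted p = 4.14e-05), and shares exon bases with AU022754. Of 27 Wnt pathway genes tested it alone was called, and 6 were lower at an adjusted p under 0.05 (22.2%, against 1.94% of all genes). The receptor Fzd9 (-1.95 ± 0.36, adjusted p = 0.0107) and the nuclear effector Tcf7l2 (-1.28 ± 0.25, adjusted p = 0.0118) missed the limit of 0.01 narrowly.

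Notch1, the receptor that releases a transcriptional co-activator when it meets its ligands, was at 53.6, 43.2 and 60.3 CPM with DMSO and at 14.3, 16 and 10.7 CPM with A-485 (log2 fold change -1.93 ± 0.21, adjusted p = 0.000115). Among 16 Notch pathway genes tested, 12 were lower by sign, the median was -0.54 and Notch1 was the single call (6.25%, against 0.619% of all genes). Lfng, the glycosyltransferase that tunes Notch for its ligands, was at 10.7, 10.4 and 35.5 CPM against 4.93, 3.24 and 3.94 CPM and did not pass (adjusted p = 0.0603).

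In the TGF-β and BMP pathway, 3 of 39 genes tested were called (7.69%, against 0.619% of all genes), all of them lower. Besides Inhbb and Id4, Tgfb2, the TGF-β2 ligand, was at 43.5, 34.3 and 39.6 CPM with DMSO and at 15.3, 13.5 and 18.3 CPM with A-485 (log2 fold change -1.32 ± 0.16, adjusted p = 0.000304). Of these 39 genes, 30 were lower by sign, with a median of -0.31. The list of YAP and TEAD targets also holds components of the pathway itself, among them Tead1, and is therefore no readout of target genes alone. It had 2 calls among 34 tested (5.88%, against the same 0.619%). These were Tgfb2 again and Dlc1, a GTPase-activating protein that restrains contractility (-1.45 ± 0.21, adjusted p = 0.00141).

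Of 23 guidance molecules tested, 3 were called lower (13%, against 0.619% of all genes). Nrp1 and Nrp2, co-receptors for semaphorins and VEGF, changed by -1.73 ± 0.3 (adjusted p = 0.00574) and -1.3 ± 0.21 (adjusted p = 0.003), and the ephrin ligand Efnb1 by -1.2 ± 0.19 (adjusted p = 0.00312). Nrp1 was at 14.1, 14 and 19.6 CPM against 5.46, 5.33 and 3.25 CPM, and Nrp2 at 19.8, 21.9 and 19.6 CPM against 9.33, 8.57 and 6.96 CPM. The call of Nrp1 was lost in each of the 6 fits that left out a library, and those of Nrp2 and Efnb1 were kept in 1 and 3 of the 6. Ephb3, a receptor tyrosine kinase for ephrins, was at 141, 99.4 and 67.2 CPM against 24.3, 30.3 and 37.3 CPM (-1.75 ± 0.23, adjusted p = 0.000576). It was the single call among 28 receptor tyrosine kinase genes tested (3.57%, against the same 0.619%), whose median was -0.57. Kitl, the ligand of the KIT receptor, changed by -1.42 ± 0.21 (adjusted p = 0.00152) and was the single call among 19 growth factor genes (5.26%).

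Genes of adhesion, matrix and the cytoskeleton had few calls in lists that were mostly lower by sign. Timp3, a matrix-bound inhibitor of metalloproteinases and one of the 2 most abundant transcripts called, was at 975, 892 and 1060 CPM with DMSO and at 420, 400 and 380 CPM with A-485 (log2 fold change -1.28 ± 0.13, adjusted p = 6.27e-05). It shares exon bases with Syn3 and was the single call among 33 matrix proteins, synthases and proteases, of which 29 were lower by sign (median -0.41). Of 11 integrin genes tested 10 were lower by sign, and Itgb3, the β3 chain, was called (-1.67 ± 0.31, adjusted p = 0.00941). This single call is 9.09% of the integrins, against 0.619% of all genes. The integrin median was -0.6, and -0.33 without DMSO replicate 3. Collagens had 0 calls among 19 tested, with 17 lower by sign and a median of -0.37. Mesenchymal genes had 0 calls among 16, with 15 lower by sign and a median of -0.34. The share lower by sign over all genes tested was 50.3%.

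Cytoskeletal calls included Arhgap28, a GTPase-activating protein (-1.9 ± 0.31, adjusted p = 0.0037) and Cdc42ep1, an effector of CDC42 (-1.4 ± 0.22, adjusted p = 0.00314). Others were Synpo, an actin organizer (-2.14 ± 0.36, adjusted p = 0.00407), Tns4, a tensin of focal adhesions (-1.75 ± 0.31, adjusted p = 0.00645), Plec, the plakin that links intermediate filaments (-1.15 ± 0.2, adjusted p = 0.00448), and Cavin2, a coat protein of caveolae (-1.22 ± 0.16, adjusted p = 0.000829). Cavin2 was at 103, 122 and 126 CPM with DMSO and at 56.4, 44.9 and 49.6 CPM with A-485.

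Ccnd1 (chromosome 7, 144929931 to 144939925), the cyclin D1 gene that drives entry into the cell cycle, was the most abundant transcript called. It was at 1160, 1150 and 1320 CPM with DMSO and at 391, 372 and 416 CPM with A-485, and the highest A-485 library was well under the lowest DMSO library (log2 fold change -1.62 ± 0.14, adjusted p = 1.85e-05). Of 61 genes of the G1 and S phases tested, Ccnd1 was the single call and 39 were higher by sign, with a median of 0.10. The 63 genes of the G2 and M phases had 0 calls, with 49 higher by sign and a median of 0.13. Trib2, a pseudokinase scaffold, was at 276, 193 and 248 CPM against 73.3, 59.8 and 92 CPM (-1.67 ± 0.21, adjusted p = 0.000419). The p53 targets had 0 calls among 32, with 17 lower by sign and a median of -0.04. The BCL2 family had 0 calls among 14, with 12 lower by sign and a median of -0.37. Bcl2l11 had the smallest adjusted p of that family (-1.39 ± 0.28, adjusted p = 0.0148). Over all genes tested, 0.619% were called lower and 50.3% were lower by sign. Lists this short with 0 calls are therefore near the share called over all genes.

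The 2 lists of lipid synthesis had 1 call each. Sqle, squalene epoxidase of the cholesterol pathway, was at 91.9, 77.2 and 102 CPM with DMSO and at 46.5, 54.1 and 47.5 CPM with A-485 (log2 fold change -0.87 ± 0.14, adjusted p = 0.004), and 23 of 27 genes of that pathway were lower by sign (median -0.30). Acsl3, a long-chain acyl-CoA synthetase, changed by -1.06 ± 0.17 (adjusted p = 0.00363) and was the single call among 22 genes of fatty acid synthesis, of which 4 passed at 0.05 (18.2%, against 1.94% of all genes). Slc5a3 and Slc26a2, transporters of myo-inositol and sulfate, were the 2 calls among 156 solute carriers (1.28%, against 0.619% of all genes). They changed by -1.4 ± 0.22 (adjusted p = 0.00265) and -0.9 ± 0.13 (adjusted p = 0.00152).

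The lists of basic biosynthesis had 0 calls in either direction. They were ribosome biogenesis (92 tested, median 0.12), cytosolic ribosomal proteins (77, 0.06), translation factors (63, 0.08), aminoacyl-tRNA synthetases (20, 0.07), proteasome subunits (37, 0.08), splicing factors (73, 0.13) and nuclear respiratory chain subunits (75, 0.04). Acetyltransferases (13 tested), deacetylases (14) and bromodomain genes (26) also had 0 calls, as had heat shock genes (24), replication-dependent histones (50) and the unfolded protein response (28). Over all genes tested, 0.619% were called lower and 0.0418% higher, so 0 calls in any 1 list of this size are near that share. A gene that misses the limit is not thereby shown to be unchanged. All 13 mitochondrially encoded protein genes were lower by sign, with a median of -0.54 and 0 calls. Their medians per library, relative to the DMSO mean, were 0.201, 0.182 and -0.328 in the DMSO libraries and -0.341, -0.679 and -0.387 in the A-485 libraries, so that DMSO replicate 3 lay close to the A-485 libraries, and in the IFNγ-treated cells the median change was 0.30.

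**Figure D4:**
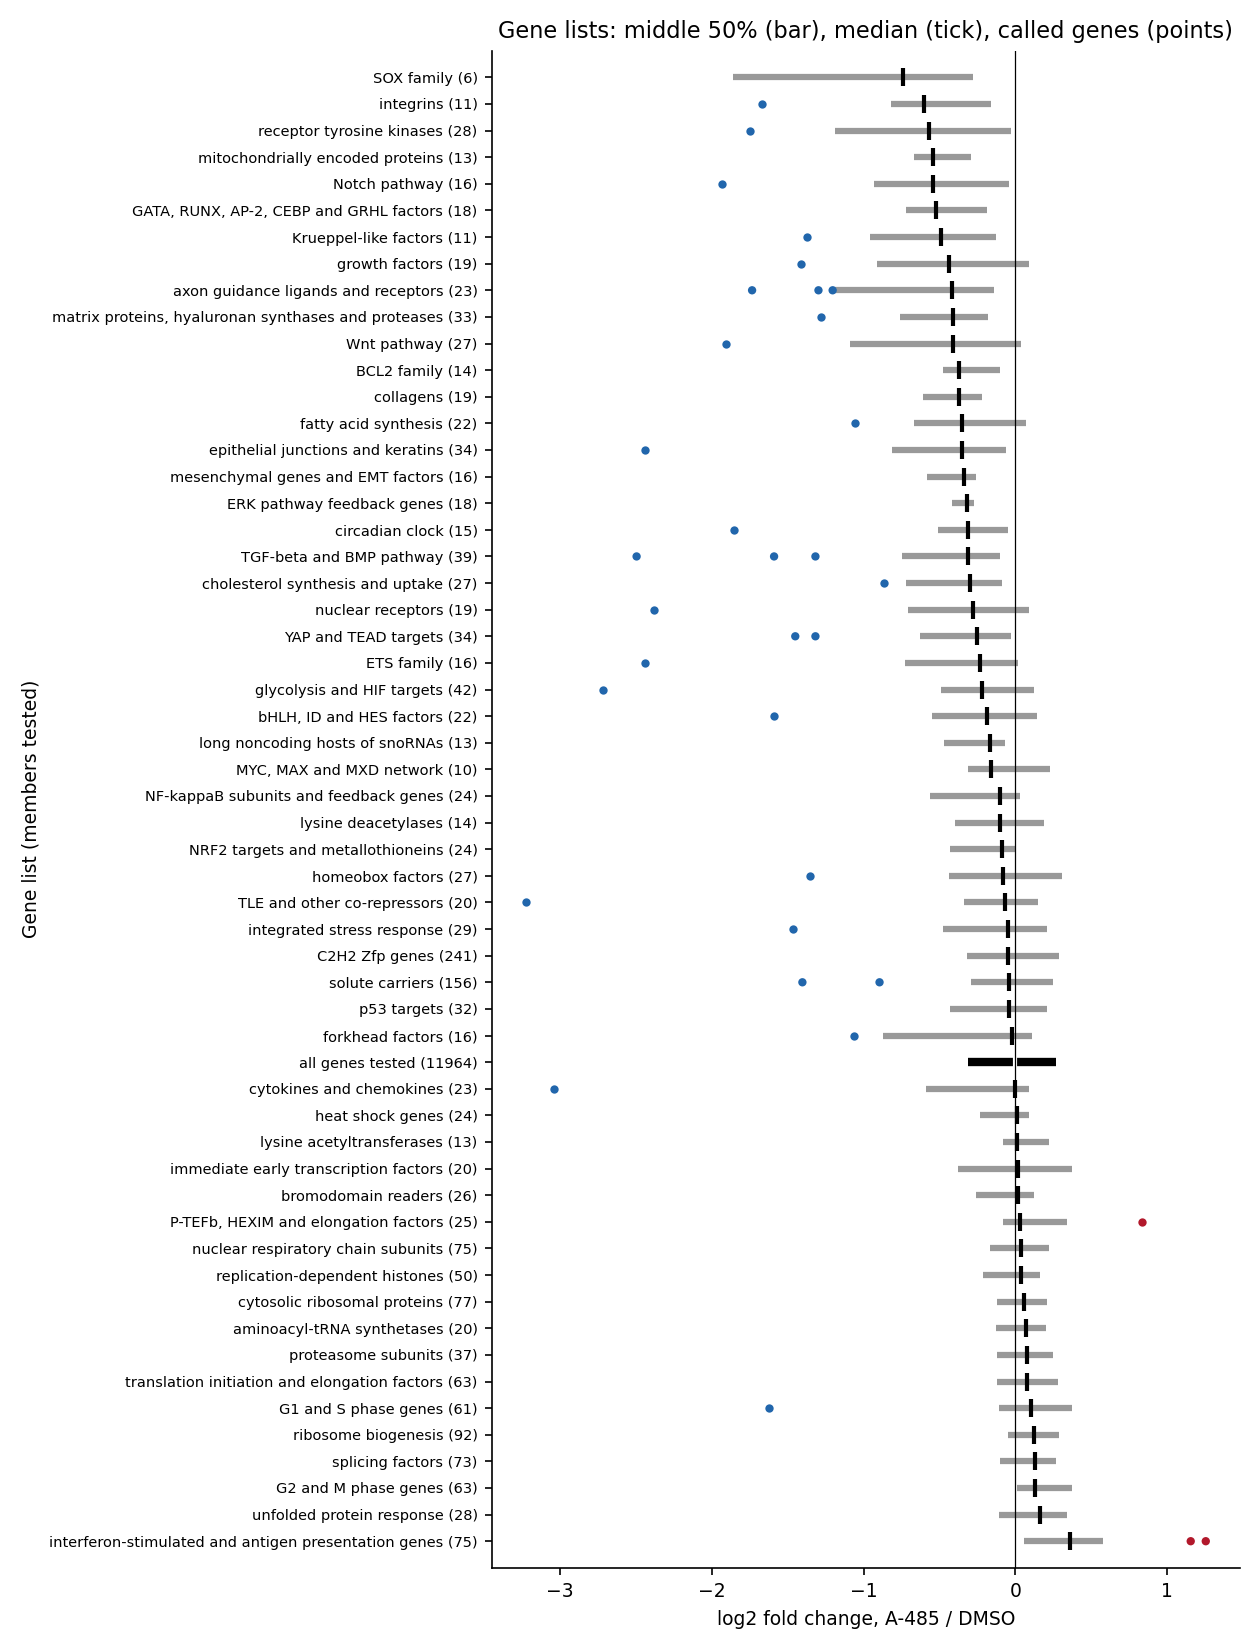
Change with A-485 in each list of genes (y axis, with the number tested), as the middle 50% of the log2 fold changes (bar) and their median (tick), with called genes as points (blue lower, red higher). The SOX family has the lowest median, -0.74, while ribosome biogenesis and the cell cycle lists have medians of 0.1 to 0.13.

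The increases were few and none of the 5 calls survived every omission of a library. Hexim1 (chromosome 11, 103116231 to 103119725), the inhibitor of the elongation kinase P-TEFb, was at 21, 22.2 and 22.1 CPM with DMSO and at 38.6, 40 and 38 CPM with A-485 (log2 fold change 0.84 ± 0.14, adjusted p = 0.00407). Its libraries were the tightest of the 5, and its adjusted p reached 0.035 with a library left out. It was the single call among 25 genes of P-TEFb and elongation, whose median was 0.03.

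Tor3a, an interferon-inducible ATPase of the endoplasmic reticulum, was at 8.62, 10.7 and 5.86 CPM with DMSO and at 18.8, 19.4 and 19.2 CPM with A-485 (log2 fold change 1.16 ± 0.2, adjusted p = 0.00551). Ifit1, an antiviral RNA-binding protein, was at 1.89, 2.99 and 3.1 CPM against 7.57, 5.14 and 6.26 CPM (1.25 ± 0.23, adjusted p = 0.00975). They were the 2 calls among 75 interferon-stimulated and antigen presentation genes tested, while 0.0418% of all genes were called higher. Of the 75, 57 were higher by sign with a median of 0.36, and 24% were lower by sign, against 50.3% of all genes. In the IFNγ-treated repeat the direction of the list was the opposite, with 64 of the 75 lower by sign and a median of -0.62. The A-485 libraries, with medians of 0.392, 0.258 and 0.304 for this list relative to the DMSO mean, were all above the DMSO libraries (0.04, 0.05 and -0.026). The summed leukocyte markers given above were higher in A-485 replicates 1 and 3 than in any DMSO library. In A-485 replicate 2 they were at 13.8 CPM, within the DMSO range. The part of these markers in the list's change was not tested. Irf1, a transcription factor of the interferon response, and Tap1, a subunit of the peptide transporter, did not pass, at 0.06 ± 0.28 and 0.58 ± 0.26 (adjusted p = 0.941 and 0.38).

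The remaining 2 increases were small nucleolar RNAs, which guide the modification of ribosomal RNA. Snora26 (chromosome 5, 74093530 to 74093650) was at 9.04, 11.8 and 12.4 CPM with DMSO and at 32.2, 30.9 and 38 CPM with A-485 (log2 fold change 1.61 ± 0.28, adjusted p = 0.00503). Gm26448, within an intron of the ribosomal protein gene Rpsa, had 2, 1 and 1 counts with DMSO and 15, 9 and 11 with A-485, a ratio of 8.04 (95% interval 2.87 to 31.1, exact, counting error only; adjusted p = 0.00746). Small nucleolar RNAs are mostly not polyadenylated and a 3′ kit is not designed to sample them. The 13 long noncoding hosts of such RNAs had 0 calls and a median of -0.17.

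The A-485+IFNγ and IFNγ libraries repeat the comparison in other cultures, with controls of their own. Both comparisons take the spread of each gene from the same fit of all 18 libraries. Genes with little spread are therefore favored in both, and the calls of the repeat are not fully independent. Of the 79 genes called at steady state, 98.7% changed in the same direction there, 73 of the 74 lower genes and all 5 higher, whereas 53.1% of all genes tested were lower. The test called 29 of the 74 lower again and 51 at 0.05, against 0.535% and 1.56% of all genes lower at these limits, and 0 of the 5 higher. The median of the 74 was -1.07 there against -1.46 in the libraries that chose them. Tle3, the first gene above, was at 31.8, 44.6 and 30 CPM with IFNγ and at 6.88, 4.27 and 6.44 CPM with A-485+IFNγ (log2 fold change -2.58 ± 0.26, adjusted p = 0.000125). Ccnd1 changed by -1.02 ± 0.14 (adjusted p = 0.000946), Notch1 by -1.8 ± 0.21 (adjusted p = 0.000418), Timp3 by -1.43 ± 0.13 (adjusted p = 5.7e-05) and Trib2 by -1.8 ± 0.21 (adjusted p = 0.000421).

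Nupr1 was the exception, at 22.6, 24.1 and 20.8 CPM with IFNγ and at 25.4, 23.2 and 28.1 CPM with A-485+IFNγ (log2 fold change 0.19 ± 0.2, adjusted p = 0.686). Hexim1 changed there by 0.08 ± 0.14 (adjusted p = 0.823) and Snora26 by 1 ± 0.26 (adjusted p = 0.0673). A difference of the A-485 effect between cells without and with IFNγ was called for 0 genes by edgeR (499 at an unadjusted p under 0.05), 0 by limma-voom and 10 by DESeq2. For Nupr1 that difference was 1.65 ± 0.29 (adjusted p = 0.136) and for Wnt7b 1.29 ± 0.25 (adjusted p = 0.181), the smallest adjusted p among the 74 being that of Nupr1.

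**Figure D5:**
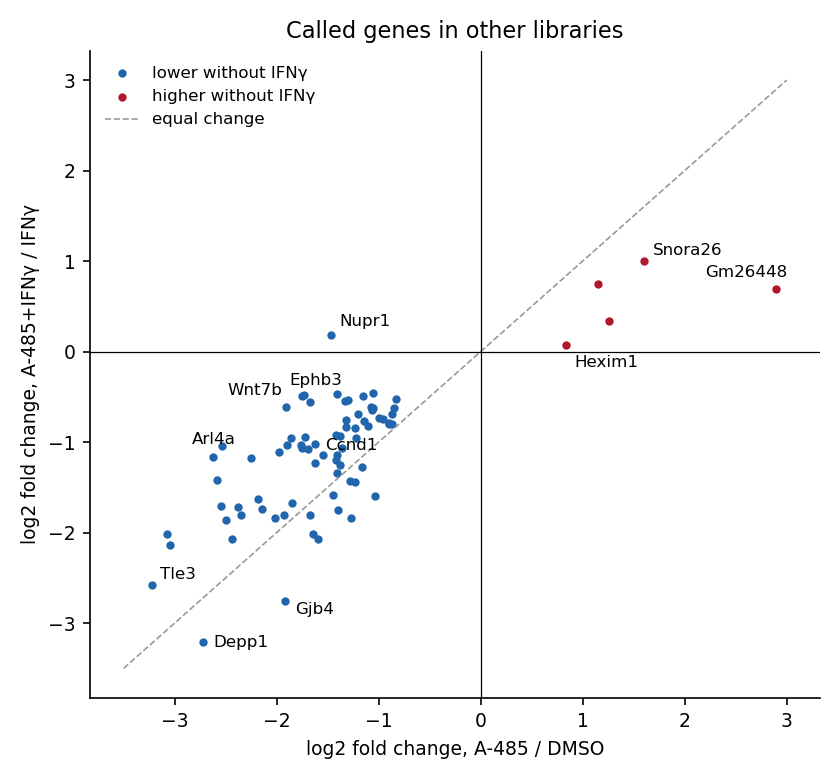
log2 fold change with A-485 at steady state (x axis) and in IFNγ-treated cells (y axis) for the 79 genes called at steady state, 1 point per gene, with a dashed line where both are equal. All blue points but Nupr1 lie below 0 on the y axis, and all 5 red points lie above it, Hexim1 close to 0.

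A-241, the chemically distinct P300/CBP inhibitor, was given at 250 nM and compared with the same DMSO libraries, so its values stand beside those of A-485 without a comparison. Tle3 changed by -3.22 ± 0.27 with A-485 and by -3.96 with A-241, Ccnd1 by -1.62 and -2.23, Notch1 by -1.93 and -2.86, and Timp3 by -1.28 and -2.48 on the log2 scale. Slc26a2 changed by -0.9 with A-485 and by -0.29 with A-241 (adjusted p = 0.185), Ephb3 by -1.75 and -1.45, and Wnt7b by -1.91 and -1.57. Hexim1 changed by 0.84 with A-485 and by 1.63 with A-241, and Ifit1 by 1.25 and 0.13 (adjusted p = 0.845).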

How the data were processed

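The authors deposited raw counts for 43629 gene identifiers in 18 libraries, made by trimming with cutadapt 1.7, aligning to mm10 (GRCm38) with HISAT2 2.1.0 and counting on exons with featureCounts, without normalization, with reads over several genes counted for each and no strand option. Symbols and positions were taken from GENCODE vM21 (97.5% of identifiers matched). Genes kept by filterByExpr (11964) were tested in R 4.3.3 with edgeR 4.0.16 (TMM factors, glmQLFit over all 18 libraries, glmQLFTest, Benjamini-Hochberg adjustment over all genes tested, called at 0.01). CPM use TMM-scaled library sizes, except the marker sums and the CPM given for 3 counts, which use the total counts of each library. Depth was 3417167 to 6145972 counts in the 6 libraries, and 3 counts are 0.488 to 0.878 CPM there. The fit was tested on simulated data with known changes. It called 42.2% of the changed genes, 12.6% of those changed 2-fold and 65.2% of those changed 4-fold, with 0 false calls. Most 2-fold changes were thus missed in the simulated counts. These counts were drawn independently for each gene, without shifts shared across the genes of 1 library. The share of false calls in the real libraries, where DMSO replicate 3 stood apart, was therefore not measured.

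The lists and members were chosen with earlier results of these data known. Full values are given for genes among the 12 largest decreases and all increases among genes called whose higher group averaged 50 counts or more, with no overlap of the groups in CPM; other genes named are calls, the 3 members of a list with the smallest p, Ep300, Crebbp, Myc, Irf1 and Tap1, with Ifit1, Gm26448, Sox8, Sox11 and the markers described besides. Some results that meet these rules are not reported here. Replicates of a group differed by more than sampling noise (chi-square per degree of freedom 8.77 to 94.9). Alternatives were DESeq2 1.42.0, limma-voom (limma 3.58.1) without and with sample weights, 2 surrogate variables (sva 3.50.0), other scalings and filters, a replicate block, single libraries left out, and, chosen after the data were seen, IFNγ replicate 2 or both Gm42418-rich libraries left out.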

Additional observations from a re-analysis of the deposited data

Results flagged for a closer look

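The A-485 effect on Gbp3, an interferon-induced guanylate-binding protein, differed between cells with and without IFNγ at an adjusted p under 0.05 of the interaction in edgeR, which does not pass the limit of 0.01. The change in IFNγ-treated cells minus the change at steady state was -2.19 ± 0.31 (adjusted p = 0.0258). Gbp3 was at 6.1, 7.09 and 7.93 CPM with DMSO and at 8.45, 10.3 and 8.58 CPM with A-485, against 50.4, 77.6 and 44 CPM with IFNγ and 15.1, 15.2 and 18.4 CPM with A-485+IFNγ. The gene is named because it met this limit, after its values were seen.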

How the results depend on the processing

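The number of lower genes was 232 with DESeq2, 284 with limma-voom and sample weights, 0 when only the 6 libraries compared were fitted, 582 with 2 surrogate variables, 277 without both Gm42418-rich libraries, 232 at an adjusted p under 0.05 and 507 at an unadjusted p under 0.01, against 74. The number of higher genes was 10 with DESeq2, 3 with limma-voom, 11 with sample weights, 0 with only the 6 libraries, 183 with 2 surrogate variables, 2 with total counts, 2 with no filter, 3 with at least 10 counts in every library, 21 without both Gm42418-rich libraries, 12 at an adjusted p under 0.05 and 127 at an unadjusted p under 0.01, against 5. With single libraries left out the lower genes ranged from 28 to 170 (without IFNγ replicate 2) and the higher from 0 to 7. The share with the same direction in IFNγ-treated cells was 92.9% with 2 surrogate variables and 91.3% at an unadjusted p under 0.01, and could not be given where 0 genes were called. Interaction calls were 10 with DESeq2, 9 with sample weights, 25 with 2 surrogate variables, 1 with total counts and 3 without both Gm42418-rich libraries, against 0. The cause of these differences was not tested. With the replicate number as a block, 50 genes were lower and 1 higher. The correlations of same-numbered libraries were -0.225, -0.018 and -0.212, and those of differently numbered libraries ranged from -0.286 to 0.412. So few values cannot tell whether same-numbered libraries share more than a number. Irf1 turned from 0.06 to -0.18 with sample weights, -0.11 with 2 surrogate variables, and -0.23 without both Gm42418-rich libraries, and ranged from -0.18 to 0.21 with single libraries left out. Medians of the 9 biosynthesis and cell cycle lists lay between -0.11 and 0.21 over all fits. No scaling moved the median over all genes beyond 0.079. Every scaling used was relative, so this does not measure a shift shared by most genes.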
